A study of Mus musculus with 24 samples.

Results

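At day 15 of osteoblast differentiation, cultures of a high bone mass (HBM) mouse line were set against wild-type (WT) cultures, by RNA-seq. The members are the 6 libraries labelled day 15, of 24 in the series: 3 HBM libraries and 3 WT libraries, each numbered as batch 18, 19 or 21, so that HBM and WT of the same batch form a pair. Per the labels, both genotypes are primary osteoblast cultures grown from the pooled calvariae, or skull bones, of newborn mice, with 3 independent pooled cultures, and the RNA was selected for poly(A) tails. Neither group received a named treatment beyond differentiation. The mutation of the HBM line, the strain, the sex of the animals and the number pooled are not stated in the labels. Each value is therefore that of a pool of animals. The question, from the series title, concerns how removal of the C-terminal propeptide of procollagen bears on bone matrix. The labels do not say which gene is changed. A Col1a1 cleavage-site mutation is known for a high bone mass line of this kind, which is background and was not checked in these files.

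Collagen I, the main protein of bone, is made by osteoblasts as procollagen with a propeptide at each end of its triple helix. The chains are hydroxylated, folded and exported through the secretory pathway. Outside the cell the C-propeptide is cut off by BMP1 and related proteases, helped by the enhancer PCOLCE, and the molecules then assemble into fibrils that are crosslinked and mineralized. The maturing osteoblast turns on a chain of genes on the way, from the transcription factors Runx2 and Sp7 to the mineral-binding proteins of bone, and finally those of the osteocyte, the cell buried in the matrix.

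The 6 libraries held 32941356 to 46987734 counts each. Levels are given in CPM, the count of a gene scaled to the TMM-adjusted size of its library, always in the order of batches 18, 19 and 21. The labelled cell type was checked first: the 10 osteoblast markers were detected in every library, and the 8 other than the collagen I chains summed to 4005, 5527 and 1637 CPM in HBM, against 1484, 3115 and 563 CPM in WT. Batch 21 was the lowest of the batches in this sum in both genotypes. The pools also differed in sex. Xist, the RNA of the inactive X chromosome, stood at 279, 177 and 0.0291 CPM in HBM, against 297, 25.2 and 0 CPM in WT, so that batch 21 was without it in WT and nearly so in HBM and batch 19 differed between the genotypes. No gene on the X chromosome (0 of 544 tested) and none on the Y (0 of 7) passed the threshold between the genotypes, against 0.307% of all genes tested. At that share few or no calls would be expected among them, and Xist itself did not pass. The part of sex in the differences was not tested. HBM and WT libraries of the same batch deviated together from their group means, with correlations across genes of 0.719 to 0.747, against -0.504 to -0.170 for libraries of different batches. Each genotype was centred on its own mean, so its deviations cancel in each gene. Negative values between batches follow from this once those within batches are positive, and they are no separate support for the pairing.

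Both collagen I chains, the transcription factor gene Creb3l1, the osteoblast factor Sp7 and the amino acid enzyme gene Bcat1 were among the genes higher in HBM cultures at day 15. A smaller set that includes Wnt11 and the zinc finger gene Zic4 was lower. Of 16592 genes tested, 37 were higher and 14 lower in HBM, so 51 passed, or 0.307% of those tested (0.223% higher and 0.0844% lower). Where nothing else is said, values of a gene are its log2 difference, HBM minus WT, with ± its SE. A gene passed at an adjusted p under 0.05 in edgeR's quasi-likelihood test, adjusted by Benjamini-Hochberg over all genes, in a model of all 24 libraries that pairs HBM and WT by batch within each day. Of the 51, 25 were at least 2-fold higher and 10 at least 2-fold lower (0.211% of those tested). All 51 had the same direction in each of the 3 pairs, which 7061 of all genes tested also had. For 20 of the 51 the values of the genotypes did not overlap. The share of all genes tested without overlap was not counted, so this number has no baseline. At an unadjusted p under 0.05 stood 2077 genes (12.5%), and the median log2 difference of all genes was -0.01.

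The calls rest on a batch term for each day and on all 3 pairs. Without any pairing, 0 genes passed in edgeR (346 at an unadjusted p under 0.05), with a common biological coefficient of variation of 0.327, against 0.131 in the fit used. With the pairing kept as 1 batch term for all days, 0 passed as well (1005 at an unadjusted p under 0.05, coefficient 0.205). With the day 15 pair of batch 19 or of batch 21 left out, 0 genes passed. Without that of batch 18, 4 did (0.0237%): Shox2, Lgi2, Bcat1 and Mboat1, each at an adjusted p of 0.0495. The libraries of the other days stayed in these leave-out settings. The other way round, a paired model of the 6 day 15 libraries alone called 424 genes higher and 295 lower (4.66% of 15414), and DESeq2 called 294 higher and 149 lower (2.67%). With library totals in place of TMM scaling, 41 were higher and 120 lower (0.97%), or 25.5% of calls higher, against 72.5% with TMM. This scaling moved the median of all genes to -0.15, and collagen I alone took 8.61 to 18.0% of the counts of HBM libraries, against 4.50 to 10.8% of WT libraries. All 51 genes kept their direction under every setting tried.

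Several calls were lost in other paired settings. In the paired model of the 18 libraries of days 10 to 21, 11 of the 51 did not pass: Sp7, Dkk1, Adm2, Mthfd2, Slc6a9, Slc13a5, Galnt3, Adgrd1, Rerg, Tspan8 and Zbtb7c, with adjusted p from 0.0572 (Slc13a5) to 0.0833 (Mthfd2). Without the filter on low counts, 13 did not pass: the same genes other than Zbtb7c, and Bmp3, Mecom and 1700123M08Rik, with adjusted p from 0.0579 (Sp7) to 0.109 (Adm2). Sp7 was also lost in the paired model of 6 libraries (0.0616), and Epha2 under library totals (0.0753).

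**Figure D1:**
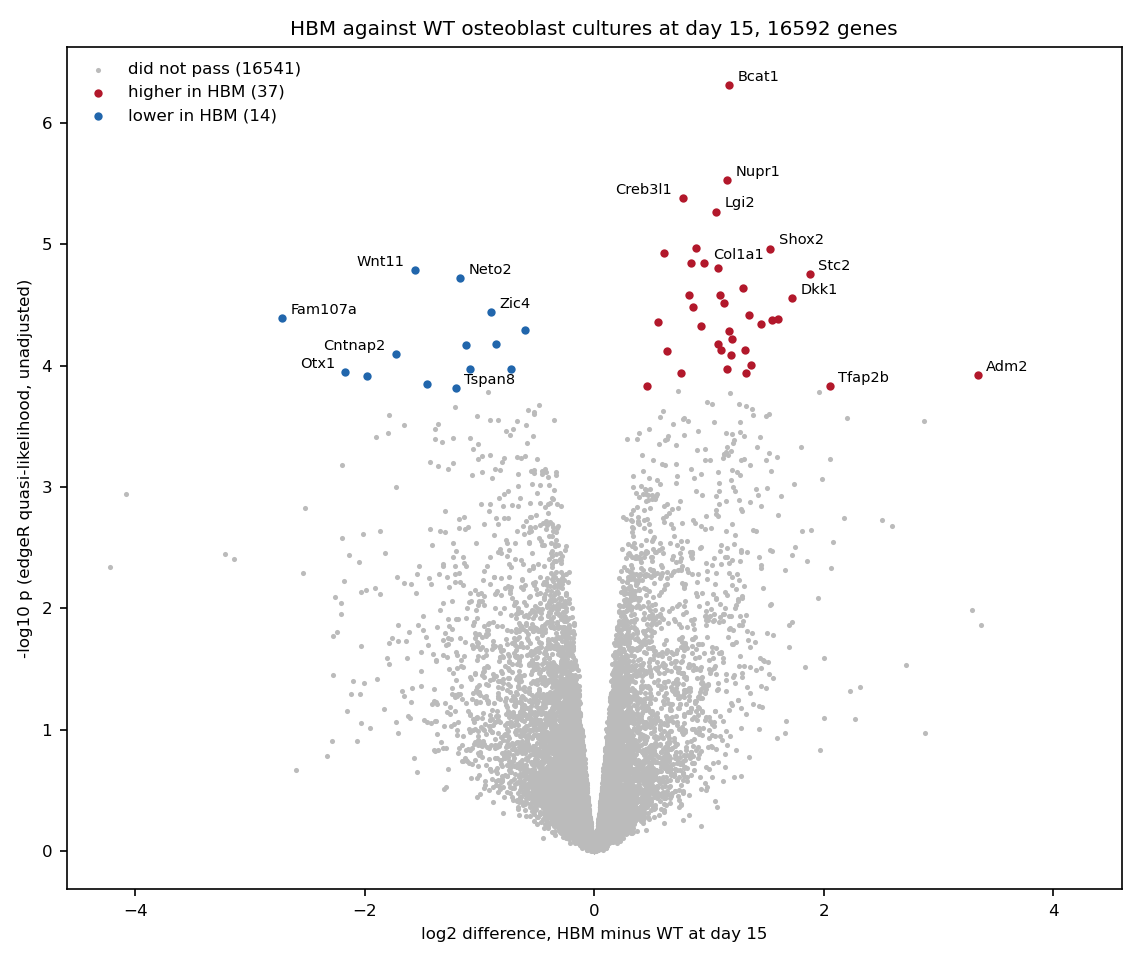
Each point is 1 of 16592 genes. The x axis is the log2 difference, HBM minus WT at day 15, and the y axis is the unadjusted -log10 p of edgeR's quasi-likelihood test. The 37 genes that passed as higher are red and the 14 that passed as lower are blue. Bcat1 has the smallest p.

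Both chains of collagen I were higher in HBM cultures. Col1a1, the gene of the alpha 1 chain, stood at 93396, 110985 and 47729.5 CPM in HBM, against 53659, 56461 and 22201 CPM in WT. The HBM library was the higher one in each pair, but the HBM library of batch 21 lay below the WT libraries of batches 18 and 19, so the genotypes overlapped. The log2 difference was 0.96 ± 0.14 (SE), a 1.94-fold level (adjusted p = 0.0241). Col1a2, the gene of the alpha 2 chain, stood at 77641, 97015 and 34908 CPM in HBM, against 45725, 52559 and 18419 CPM in WT. It showed the same order of batches and a log2 difference of 0.86 ± 0.13 (adjusted p = 0.0288). Col1a1 (ENSMUSG00000001506) lies on the plus strand of chr11:94936224-94953042 and Col1a2 (ENSMUSG00000029661) on that of chr6:4504814-4541544 in mm10. In the leave-out settings the adjusted p of Col1a1 was 0.125 to 0.204 with the log2 difference between 0.91 and 1.03.

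The genes that remove the propeptides did not pass beside the chains in the paired fit of 24 libraries. Of the 9 genes tested in the list of collagen I chains and propeptide removal, the 2 chains passed, 8 had higher values in HBM, and the median log2 difference was 0.38. Bmp1, the C-propeptide protease, stood at 581, 501 and 318 CPM in HBM, against 419.8, 415 and 242 CPM in WT (log2 difference 0.38 ± 0.09, adjusted p = 0.105). Each HBM value was above that of its pair, and the genotypes overlapped. Its enhancer Pcolce stood at 1845, 1508 and 1077 CPM in HBM, against 1709, 1422 and 993 CPM in WT (0.10 ± 0.13, adjusted p = 0.852), a difference smaller than its error whose sign turned under library totals (-0.03). Tll1, the tolloid-like relative of BMP1, was the one member with a lower value, at a log2 difference of -0.54 ± 0.22 (adjusted p = 0.307). The second enhancer gene, Pcolce2, stood at 1.10 ± 0.30 (adjusted p = 0.136). Adamts2 and Adamts14, proteases of the N-propeptide, stood at 0.21 ± 0.10 and 0.45 ± 0.21 (adjusted p = 0.431 and 0.413). DESeq2 called 4 of the 9, all higher: the chains, Bmp1 and Pcolce2 (adjusted p = 0.00708 and 0.0135 for the last 2). The paired model of 6 libraries called the chains and Bmp1 as higher (0.0316 for Bmp1) and Tll1 as lower (0.0495). That of 18 libraries called only the 2 chains. These settings called 2.67%, 4.66% and 1.1% of all genes.

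Among the enzymes and chaperones that prepare procollagen, 1 gene passed. Creb3l1 encodes a membrane-bound transcription factor, also called OASIS, that is released from the endoplasmic reticulum and drives collagen I genes in bone. It stood at 324, 344 and 243 CPM in HBM, against 210.3, 212 and 122 CPM in WT, with every HBM value above every WT value. The log2 difference was 0.77 ± 0.10 (adjusted p = 0.0223). Of the 27 genes tested in the list of procollagen modification, folding and export, 22 had higher values in HBM, with a median log2 difference of 0.29. This was 18 of 27 and 0.16 under library totals. Serpinh1, the collagen chaperone HSP47, stood at 4865, 5235 and 3222 CPM in HBM, against 3395, 3623 and 2347 CPM in WT (0.50 ± 0.12, adjusted p = 0.0904). The prolyl hydroxylase genes P4ha1 and P3h1 stood at 1.09 ± 0.26 and 0.58 ± 0.13 (adjusted p = 0.0936 and 0.0812), and the lysyl hydroxylase gene Plod1 at 0.39 ± 0.09 (0.0885). Sparc, a collagen-binding protein of bone, stood at 31370.1, 38973 and 16969 CPM in HBM, against 21937, 26354 and 12419.7 CPM in WT (0.51 ± 0.11, adjusted p = 0.0676). The paired model of 6 libraries called 12 of the 27 as higher, DESeq2 10 and the paired model of 18 libraries 4. These settings called 4.66%, 2.67% and 1.1% of all genes.

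P4ha1 was uneven between batches, at 338, 987 and 331 CPM in HBM, against 203, 352 and 162 CPM in WT, with the HBM library of batch 19 far above the rest. The same library stood highest in Ankrd37 and Ldha. Ankrd37, a hypoxia-induced gene, stood at 0.411, 12.4 and 0.641 CPM in HBM, against 0.0835, 3.51 and 0.0793 CPM in WT, and lactate dehydrogenase, Ldha, at 439, 1258 and 431 CPM in HBM, against 401, 659 and 408 CPM in WT. Of the 21 genes of the glycolysis and hypoxia list 0 passed and 20 had higher values in HBM (median log2 difference 0.34). Without the batch 19 pair 14 had higher values and 7 lower, with a median of 0.09. Their part in the difference of P4ha1 was not tested.

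Among the other lists of matrix genes, 0 members passed. Of 5 lysyl oxidases, the enzymes that crosslink collagen, 0 passed and 5 had higher values (4 under library totals). Loxl4 stood at 113, 230.3 and 44.1 CPM in HBM, against 43.1, 99.0 and 17.7 CPM in WT (1.31 ± 0.28, adjusted p = 0.0676), and Lox at 0.24 ± 0.16 (0.615). Of 17 other fibrillar and fibril-associated collagens 0 passed, 11 were higher and 6 lower in value, with a median of 0.13 that became 0.00 under library totals. Col5a1, a chain of the collagen V that joins collagen I in fibrils, stood at 4115, 4561 and 3018 CPM in HBM, against 3171, 2589.8 and 1832 CPM in WT (0.64 ± 0.13, adjusted p = 0.0611). Of 12 small leucine-rich proteoglycans 0 passed, with a median of 0.04 (-0.09 under library totals). Of 17 matricellular and adhesive proteins 0 passed and 10 had lower values. Tnn, tenascin W, was among the higher ones, at 183, 216 and 245 CPM in HBM, against 90.6, 72.4 and 38.8 CPM in WT, with no overlap between the genotypes (1.74 ± 0.40, adjusted p = 0.0812).

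**Figure D2:**
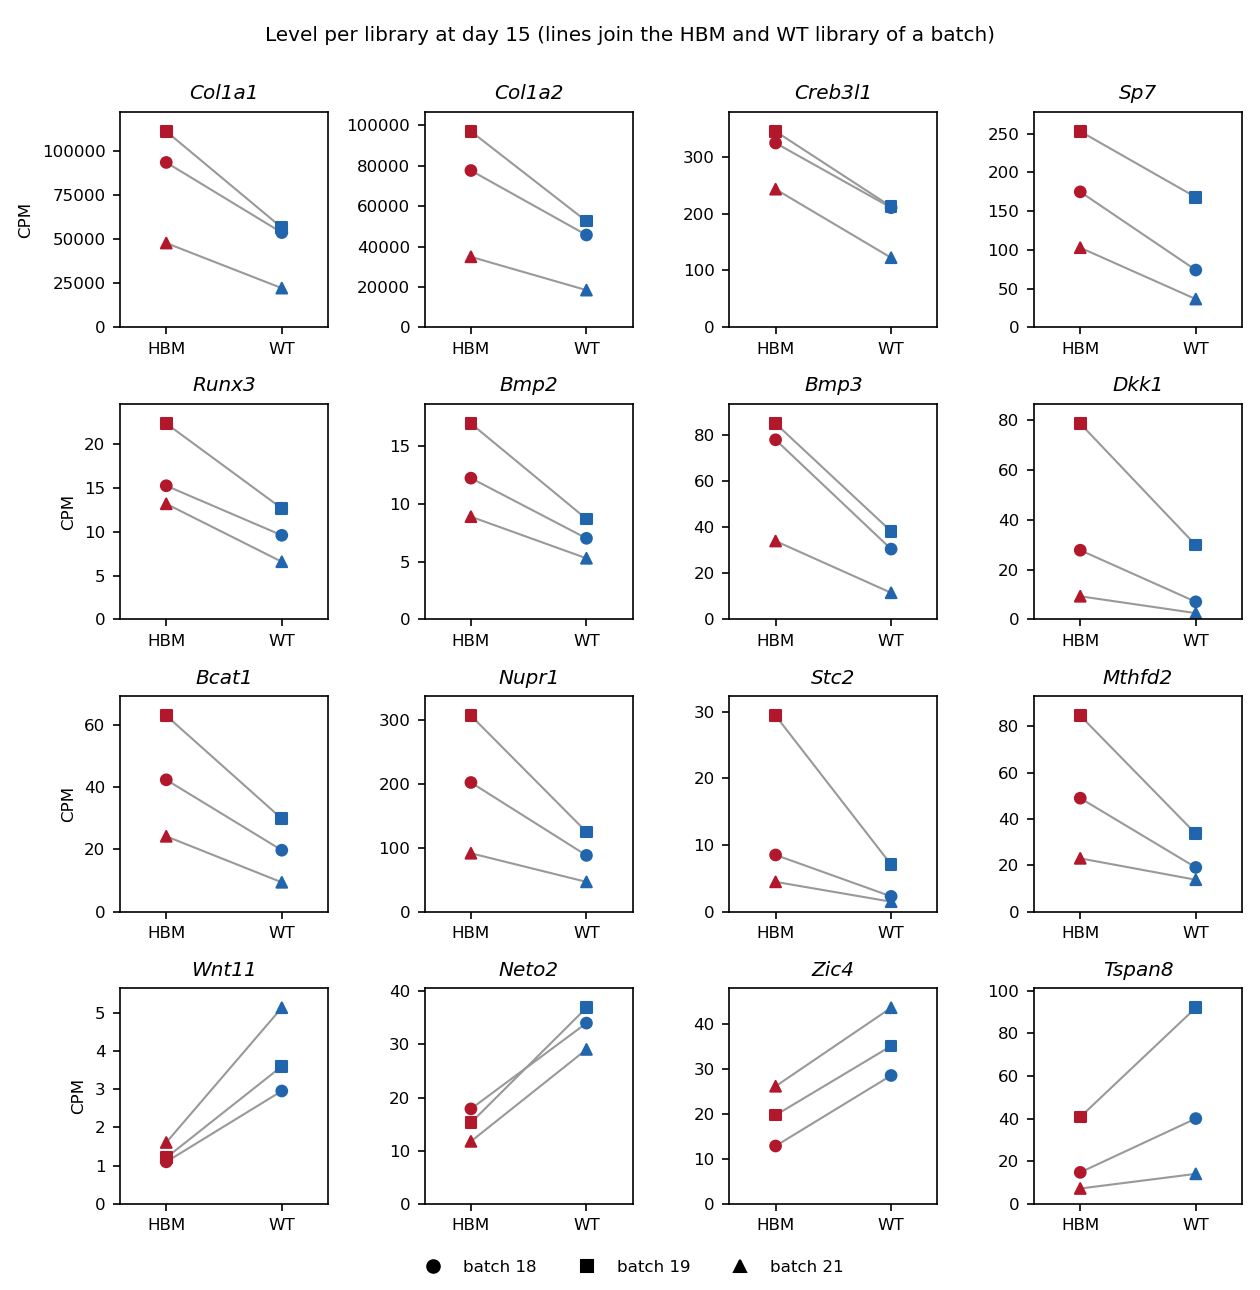
Levels in CPM (y axis, from 0) of 16 genes that passed, in each HBM and WT library at day 15 (x axis). Symbols mark batches 18, 19 and 21, and lines join the HBM and WT library of a batch. In the first 12 panels every HBM value is above the WT value of its batch, and in the last 4, Wnt11, Neto2, Zic4 and Tspan8, every HBM value is below it.

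Among the transcription factors of the osteoblast, Sp7 was higher in HBM. Sp7, or osterix, is required for osteoblasts to form. It stood at 175, 253 and 103 CPM in HBM, against 74.0, 168 and 36.5 CPM in WT, and its log2 difference was 1.11 ± 0.19 (adjusted p = 0.0348). The HBM library was the higher one in each pair while the genotypes overlapped across batches. Of 13 osteoblast transcription factors tested, 1 passed and 9 had higher values. Runx2, the factor that acts before Sp7, stood at 89.1, 118 and 71.8 CPM in HBM, against 75.0, 98.2 and 56.1 CPM in WT (0.29 ± 0.10, adjusted p = 0.246). Dlx3, a homeobox factor of bone and teeth, stood at 1.30 ± 0.27 (adjusted p = 0.0611). Runx3, a relative of Runx2 that was on none of the lists, passed at 15.3, 22.4 and 13.2 CPM in HBM, against 9.61, 12.7 and 6.58 CPM in WT, without overlap (0.83 ± 0.13, adjusted p = 0.0269).

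The bone matrix and mineralization genes had large differences and wide errors. Of the 19 tested, 17 had higher values in HBM and 13 of these an unadjusted p under 0.05, with a median log2 difference of 1.14, but 0 passed over all genes in the paired fit of 24 libraries. Such a p was held by 12.5% of all genes tested, in either direction. Without the batch 21 pair the median was 0.69, with 15 of 19 higher. The paired model of 6 libraries called 7 of them and DESeq2 9, all higher, where they called 4.66% and 2.67% of all genes. The paired model of 18 libraries called 0 of them, as did each leave-out setting. Bone sialoprotein, Ibsp, which nucleates mineral, stood at 2206, 3341 and 945 CPM in HBM, against 806, 1684 and 255 CPM in WT (1.44 ± 0.30, adjusted p = 0.0611). The genotypes overlapped across batches, and each HBM value was above that of its pair. Osteocalcin, Bglap, stood at 935, 714 and 141 CPM in HBM, against 232, 458 and 38.7 CPM in WT (1.51 ± 0.35, adjusted p = 0.0842), and the second osteocalcin gene Bglap2 at 1.49 ± 0.29 (0.0583). These copies are near-identical and their counts are uncertain, since the handling of shared reads is not given in the sources used here. Tissue non-specific alkaline phosphatase, Alpl, which frees phosphate for mineral, stood at 332, 650.0 and 225 CPM in HBM, against 151, 391 and 94.2 CPM in WT (1.04 ± 0.29, adjusted p = 0.140). The phosphatase gene Phospho1 and the sphingomyelinase gene Smpd3, both needed for the first mineral, stood at 1.22 ± 0.25 and 1.14 ± 0.27 (adjusted p = 0.0611 and 0.0922).

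Of 10 osteocyte genes tested, 10 had higher values in HBM (7 under library totals), with a median of 0.67, and 1 passed: Dkk1, described with the Wnt genes. Sost, the Wnt inhibitor of osteocytes, stood at 26.4, 96.7 and 3.67 CPM in HBM, against 4.09, 35.8 and 1.30 CPM in WT (1.89 ± 0.46, adjusted p = 0.113). Its level ranged more widely between batches than between genotypes. Dmp1, a matrix protein of osteocytes, stood at 58.5, 40.5 and 140.5 CPM in HBM, against 30.3, 31.5 and 29.2 CPM in WT, where the HBM library of batch 21 was high in a batch that was low in Sost (1.19 ± 0.42, adjusted p = 0.235). Every HBM value of Dmp1 lay above every WT value. In bulk samples such as these, more cells of a type and more RNA per cell cannot be told apart.

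Of the BMP and Wnt genes, 2 BMP ligands and the Wnt inhibitor Dkk1 were higher in HBM and Wnt11 was lower. Bmp2, a ligand that drives osteoblast formation, stood at 12.2, 16.9 and 8.89 CPM in HBM, against 7.02, 8.69 and 5.29 CPM in WT, without overlap (0.84 ± 0.12, adjusted p = 0.0241). Bmp3, a family member that opposes BMP signalling in bone, stood at 77.8, 84.9 and 34.0 CPM in HBM, against 30.5, 38.2 and 11.6 CPM in WT (1.35 ± 0.21, a 2.55-fold level, adjusted p = 0.0289). Of 32 BMP and TGF-beta genes tested, these 2 passed, 17 had higher and 15 lower values (12 and 20 under library totals), and the median was 0.03. Tgfb1 stood at 0.37 ± 0.08 (adjusted p = 0.0611), the BMP antagonist Nog at 0.48 ± 0.11 (0.0760) and Bmp8a at 1.43 ± 0.34 (0.0874).

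Dkk1, a secreted inhibitor of Wnt receptors made by osteoblasts and osteocytes, stood at 27.8, 78.5 and 9.29 CPM in HBM, against 7.07, 29.8 and 2.54 CPM in WT (1.73 ± 0.26, adjusted p = 0.0269). It was higher in HBM in each pair, while batch 19 stood far above the other batches in both genotypes. Wnt11, a ligand mostly known for signalling without beta-catenin, stood at 1.10, 1.20 and 1.60 CPM in HBM, against 2.95, 3.60 and 5.13 CPM in WT. The genotypes did not overlap, and the log2 difference was -1.56 ± 0.23 (adjusted p = 0.0241). Of 32 Wnt pathway genes tested, 1 passed as higher and 1 as lower, and 14 had higher and 18 lower values. Wnt10b, a ligand that favours bone formation, stood at 1.20 ± 0.24 (adjusted p = 0.0611), the transcription factor gene Tcf7 at 0.94 ± 0.22 (0.0874) and the Wnt enhancer Rspo2 at -0.81 ± 0.24 (0.161). Of 13 factors that regulate osteoclasts 0 passed. Cxcl12, a chemokine that retains blood cell precursors, stood at 910.5, 578 and 415 CPM in HBM, against 1495, 1031 and 938 CPM in WT, without overlap (-0.91 ± 0.18, adjusted p = 0.0583). The osteoclast-inducing Tnfsf11 stood at -0.50 ± 0.21 (0.363) and its decoy receptor Tnfrsf11b at 0.21 ± 0.26 (0.853).

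Of the integrated stress response, in which the transcription factor ATF4 induces genes for making and importing amino acids, Nupr1 and Mthfd2 were higher in HBM. They are described here with 5 called genes from outside that list, Bcat1, Stc2, Aldh18a1, Slc6a9 and Adm2, which were put beside them after their values were seen and form no tested group. Bcat1, the cytosolic enzyme of branched-chain amino acid transamination, had the smallest p of all genes. It stood at 42.4, 63.0 and 24.2 CPM in HBM, against 19.7, 29.9 and 9.41 CPM in WT, and its log2 difference was 1.18 ± 0.12 (adjusted p = 0.00810). Nupr1, a small stress-induced nuclear protein, stood at 202, 306 and 91.2 CPM in HBM, against 87.9, 125 and 46.4 CPM in WT (1.16 ± 0.14, adjusted p = 0.0223). For both genes the HBM library was above its WT pair in all 3 batches, and the HBM library of batch 21 lay below the WT library of batch 19. Mthfd2, an enzyme of mitochondrial folate metabolism, stood at 49.0, 84.6 and 23.0 CPM in HBM, against 19.1, 33.6 and 13.8 CPM in WT (1.15 ± 0.20, adjusted p = 0.0421). Stc2, a secreted glycoprotein of the stress response, was 3.67-fold higher (1.88 ± 0.27, adjusted p = 0.0241). Aldh18a1, which makes the precursor of proline, stood at 135, 179.9 and 94.1 CPM in HBM, against 94.9, 108 and 70.4 CPM in WT (0.55 ± 0.09, adjusted p = 0.0291). Slc6a9, a glycine transporter, stood at 20.8, 35.6 and 8.77 CPM in HBM, against 6.96, 8.20 and 4.87 CPM in WT, without overlap (1.55 ± 0.25, adjusted p = 0.0289). Glycine and proline are the most used residues of the collagen helix. Adm2, a peptide hormone gene, had the largest ratio of all called genes, at 2.85, 12.4 and 0.320 CPM in HBM, against 0.167, 1.31 and 0.0793 CPM in WT, where the low counts of batches 18 and 21 in WT limit its precision (3.34 ± 0.60, adjusted p = 0.0430).

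Of 22 integrated stress response genes tested, 2 passed (Nupr1 and Mthfd2), 20 had higher values in HBM (19 under library totals) and 14 of these an unadjusted p under 0.05, with a median log2 difference of 0.54. Among all genes tested 0.307% passed and 12.5% had an unadjusted p under 0.05, in either direction. Asns, asparagine synthetase, stood at 67.1, 115 and 34.2 CPM in HBM, against 24.6, 34.8 and 22.3 CPM in WT (1.28 ± 0.28, adjusted p = 0.0676). Chac1, which degrades glutathione, stood at 34.6, 82.3 and 7.08 CPM in HBM, against 7.07, 12.9 and 4.23 CPM in WT (1.99 ± 0.45, adjusted p = 0.0767). In both genes the HBM library of batch 19 was the highest and the pair of batch 21 the closest. The serine synthesis genes Phgdh and Psat1 stood at 0.93 ± 0.24 and 0.74 ± 0.21 (adjusted p = 0.111 and 0.136), the transporter gene Slc7a5 at 1.22 ± 0.32 (0.119) and Atf4 itself at 0.48 ± 0.15 (0.178). DESeq2 called 8 of the 22, the paired model of 6 libraries 4 and that of 18 libraries 1, all higher. These settings called 2.67%, 4.66% and 1.1% of all genes.

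Promoters of 4 genes are shown because each holds the letters of a known ATF4 element. The element was searched as TGATGNAA on both strands in the 250 bases before the gene start (RefSeq, GRCm38.p6), and the match is in capitals. It was in 2 of 26 called higher genes with a promoter in the table (7.69%, Nupr1 and Fabp3), in 0 of 11 called lower genes, in 5 of 20 genes of the stress response list (25%) and in 301 of 11973 genes tested (2.51%). Nupr1 is in both counts, and Atf3 and Slc7a11 of the list also hold the element but are not shown. That list was drawn up as genes of the ATF4 response, so its share is not a result of these data.
Nupr1, chr7:126625471-126625720, minus strand: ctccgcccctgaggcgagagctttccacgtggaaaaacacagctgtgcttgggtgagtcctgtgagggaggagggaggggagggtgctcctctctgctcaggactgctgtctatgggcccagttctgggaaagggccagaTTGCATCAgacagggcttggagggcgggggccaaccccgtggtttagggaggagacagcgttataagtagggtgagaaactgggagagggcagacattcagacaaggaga
Fabp3, chr4:130308488-130308737, plus strand: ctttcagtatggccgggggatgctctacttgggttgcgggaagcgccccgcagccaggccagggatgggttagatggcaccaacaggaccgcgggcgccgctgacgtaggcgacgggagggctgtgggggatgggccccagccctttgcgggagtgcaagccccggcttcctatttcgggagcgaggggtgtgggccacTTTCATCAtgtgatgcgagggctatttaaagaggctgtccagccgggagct
Asns, chr6:7693210-7693459, minus strand: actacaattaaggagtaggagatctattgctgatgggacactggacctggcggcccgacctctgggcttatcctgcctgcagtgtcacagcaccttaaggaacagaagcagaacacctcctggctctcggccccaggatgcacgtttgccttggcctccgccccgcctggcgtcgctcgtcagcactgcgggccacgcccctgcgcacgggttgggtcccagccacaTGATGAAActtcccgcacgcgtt
Chac1, chr2:119350992-119351241, plus strand: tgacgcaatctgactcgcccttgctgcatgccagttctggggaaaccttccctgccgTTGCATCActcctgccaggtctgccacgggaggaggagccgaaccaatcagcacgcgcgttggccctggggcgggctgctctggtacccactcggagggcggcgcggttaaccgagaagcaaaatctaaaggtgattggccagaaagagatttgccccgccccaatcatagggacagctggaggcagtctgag
The match began 110 bases before the RefSeq start in Nupr1, 51 in Fabp3, 23 in Asns and 193 in Chac1. GENCODE M21 places the gene Nupr1 at chr7:126623249-126630861 and Fabp3 at chr4:130308595-130315463. The matches of these 2 genes therefore lie inside the GENCODE genes and not before their outermost starts. A second motif, TGACGTG, the core bound by CREB3L factors and XBP1, was in 0 of the 26 called higher and in 1 of the 11 called lower genes (Wnt11), against 310 of 11973 genes tested (2.59%). A match is a description of these letters and not of binding.

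The unfolded protein response of the endoplasmic reticulum gave no call. Of 22 genes of that list 0 passed (3 had an unadjusted p under 0.05, against 12.5% of all genes tested), and the median log2 difference was 0.11. In 19 of the 22 the value was higher in HBM, but in 8 of 22 under library totals. The main chaperone Hspa5, or BiP, stood at 892, 767 and 875 CPM in HBM, against 919, 710.0 and 721 CPM in WT (0.12 ± 0.10, adjusted p = 0.742, and -0.02 under library totals). The transcription factor gene Xbp1 stood at 0.26 ± 0.10 (adjusted p = 0.307). Creb3l3, a relative of Creb3l1 best known from liver and on none of the lists, passed at 24.1, 26.4 and 14.5 CPM in HBM, against 13.3, 14.1 and 5.08 CPM in WT, without overlap (1.08 ± 0.18, adjusted p = 0.0340).

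The rest of the higher genes fell into several functions. Shox2, a homeobox factor of limb and skull development, stood at 12.6, 5.72 and 1.95 CPM in HBM, against 6.18, 1.35 and 0.635 CPM in WT, with batch 18 the highest in both genotypes (1.53 ± 0.21, adjusted p = 0.0241). Lgi2, a secreted leucine-rich protein, stood at 57.6, 41.1 and 30.9 CPM in HBM, against 33.7, 18.9 and 12.5 CPM in WT (1.06 ± 0.14, adjusted p = 0.0223). Mboat1, an acyltransferase of membrane lipids, stood at 24.9, 23.3 and 27.2 CPM in HBM, against 16.3, 12.5 and 12.2 CPM in WT, without overlap (0.89 ± 0.12, adjusted p = 0.0241). Prss35, a serine protease homologue, stood at 247, 275 and 132 CPM in HBM, against 124, 131 and 52.3 CPM in WT, without overlap (1.13 ± 0.17, adjusted p = 0.0278). Slc13a5, the sodium-coupled citrate transporter, stood at 153, 189 and 85.7 CPM in HBM, against 60.4, 88.9 and 22.1 CPM in WT (1.45 ± 0.23, adjusted p = 0.0291). Citrate is a component of bone mineral. Galnt3, a glycosyltransferase that protects the phosphate hormone FGF23 from cleavage, stood at 25.7, 36.7 and 10.3 CPM in HBM, against 8.16, 17.5 and 3.94 CPM in WT (1.36 ± 0.24, adjusted p = 0.0421). Unc5b, a netrin receptor, stood at 254, 273 and 155 CPM in HBM, against 164, 173 and 101 CPM in WT (0.63 ± 0.11, adjusted p = 0.0348).

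Smaller or less abundant members followed. Fabp3, a fatty acid carrier, was 2.12-fold higher and Hspb7, a small heat shock protein of muscle, 2.13-fold higher (adjusted p = 0.0241 and 0.0269). Hapln4, a link protein of hyaluronan matrices, was 2.45-fold higher and the epoxide hydrolase family gene Ephx4 3.03-fold (0.0269 and 0.0289), both without overlap. Tfap2b, a transcription factor of the AP-2 family, stood at 2.66, 0.276 and 2.42 CPM in HBM, against 0.724, 0.0214 and 0.608 CPM in WT (2.06 ± 0.38, adjusted p = 0.0491). Its batch 19 pair rests on counts of 11 in HBM and 1 in WT, which limits the precision. Mlip, Rerg, Ngef and Adgrd1, of which the last encodes an adhesion receptor and Ngef a guanine nucleotide exchange factor, were 2.26, 2.29, 2.30 and 2.49-fold higher. The smallest passing increases were in Epha2, an ephrin receptor (1.38-fold), Aldh18a1 (1.47-fold), Myo1d, an unconventional myosin (1.53-fold), and Unc5b (1.55-fold). Zbtb7c, Lzts1 and 3425401B19Rik, at 1.69, 1.90 and 2.51-fold, complete the 37.

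Lower genes included receptor subunits, adhesion proteins and transcription factors. Neto2, an auxiliary subunit of kainate receptors, stood at 17.9, 15.3 and 11.7 CPM in HBM, against 34.0, 36.9 and 29.1 CPM in WT, with a clear gap between the genotypes (-1.17 ± 0.17, adjusted p = 0.0241). Tspan8, a tetraspanin of the cell surface, stood at 14.7, 40.7 and 7.14 CPM in HBM, against 40.0, 92.0 and 14.0 CPM in WT (-1.20 ± 0.22, adjusted p = 0.0499). Its batches spread more widely than its genotypes. Rhou, a small GTPase, stood at 18.9, 13.2 and 14.9 CPM in HBM, against 26.1, 23.6 and 21.3 CPM in WT (-0.61 ± 0.10, adjusted p = 0.0297). Shroom3, which contracts the cell apex, stood at 11.3, 5.97 and 6.26 CPM in HBM, against 17.2, 9.53 and 11.7 CPM in WT (-0.72 ± 0.13, adjusted p = 0.0421). Mecom, a zinc finger factor of blood stem cells, stood at 4.11, 5.97 and 3.29 CPM in HBM, against 8.55, 16.1 and 12.4 CPM in WT, without overlap (-1.46 ± 0.27, adjusted p = 0.0486). Itih2, a carrier protein that binds hyaluronan, stood at 2.85, 2.26 and 1.46 CPM in HBM, against 5.51, 4.62 and 3.86 CPM in WT, also without overlap (-1.12 ± 0.19, adjusted p = 0.0340).

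Fam107a and Otx1 had the largest decreases. Fam107a, which binds actin, stood at 0.274, 0.628 and 0.0874 CPM in HBM, against 0.947, 5.57 and 0.740 CPM in WT (-2.72 ± 0.43, adjusted p = 0.0289). Otx1, a homeobox factor of the developing head, stood at 0.0548, 0.351 and 0.146 CPM in HBM, against 0.390, 1.28 and 0.767 CPM in WT (-2.17 ± 0.39, adjusted p = 0.0428). In both the genotypes did not overlap. Low counts limit the precision of both. Fam107a had counts of 10, 25 and 3 in HBM, against 34, 260 and 28 in WT. Otx1 had 2, 14 and 5 in HBM, against 14, 60 and 29 in WT. Cntnap2 and Astn2, adhesion proteins known from neurons, stood at -1.73 ± 0.30 and -1.08 ± 0.19 (adjusted p = 0.0354 and 0.0421). Hoxaas2, an antisense RNA of the Hoxa cluster, stood at -1.98 ± 0.36 (0.0431). Since the strand setting of the counting is not given in the sources used here, its reads could not be told apart from those of genes on the opposite strand. 1700123M08Rik, a transcript without a known role here, stood at -0.86 ± 0.14 (0.0340).

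Patterning factors had mostly lower values. Zic4, a zinc finger factor of the skull and brain midline, stood at 12.9, 19.7 and 26.1 CPM in HBM, against 28.5, 35.1 and 43.6 CPM in WT, without overlap (-0.90 ± 0.14, adjusted p = 0.0289). Its neighbour on chromosome 9, Zic1, stood at 54.8, 79.6 and 87.9 CPM in HBM, against 104, 110.2 and 135 CPM in WT, also without overlap (-0.67 ± 0.13, adjusted p = 0.0583). Of 31 patterning factors tested, 1 passed as higher (Shox2) and 1 as lower (Zic4), 8 had higher and 23 lower values, 13 of these at an unadjusted p under 0.05, and the median log2 difference was -0.41. Among all genes tested 0.307% passed and 12.5% had an unadjusted p under 0.05, in either direction. The forkhead genes Foxc2 and Foxd1 stood at -0.66 ± 0.15 and -0.64 ± 0.18 (adjusted p = 0.0736 and 0.141), and Tbx15 at -0.56 ± 0.18 (0.184). Such factors are known to mark where in the body a cell came from. The labels do not give the skull regions in each pool, so region and genotype cannot be told apart.

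**Figure D3:**
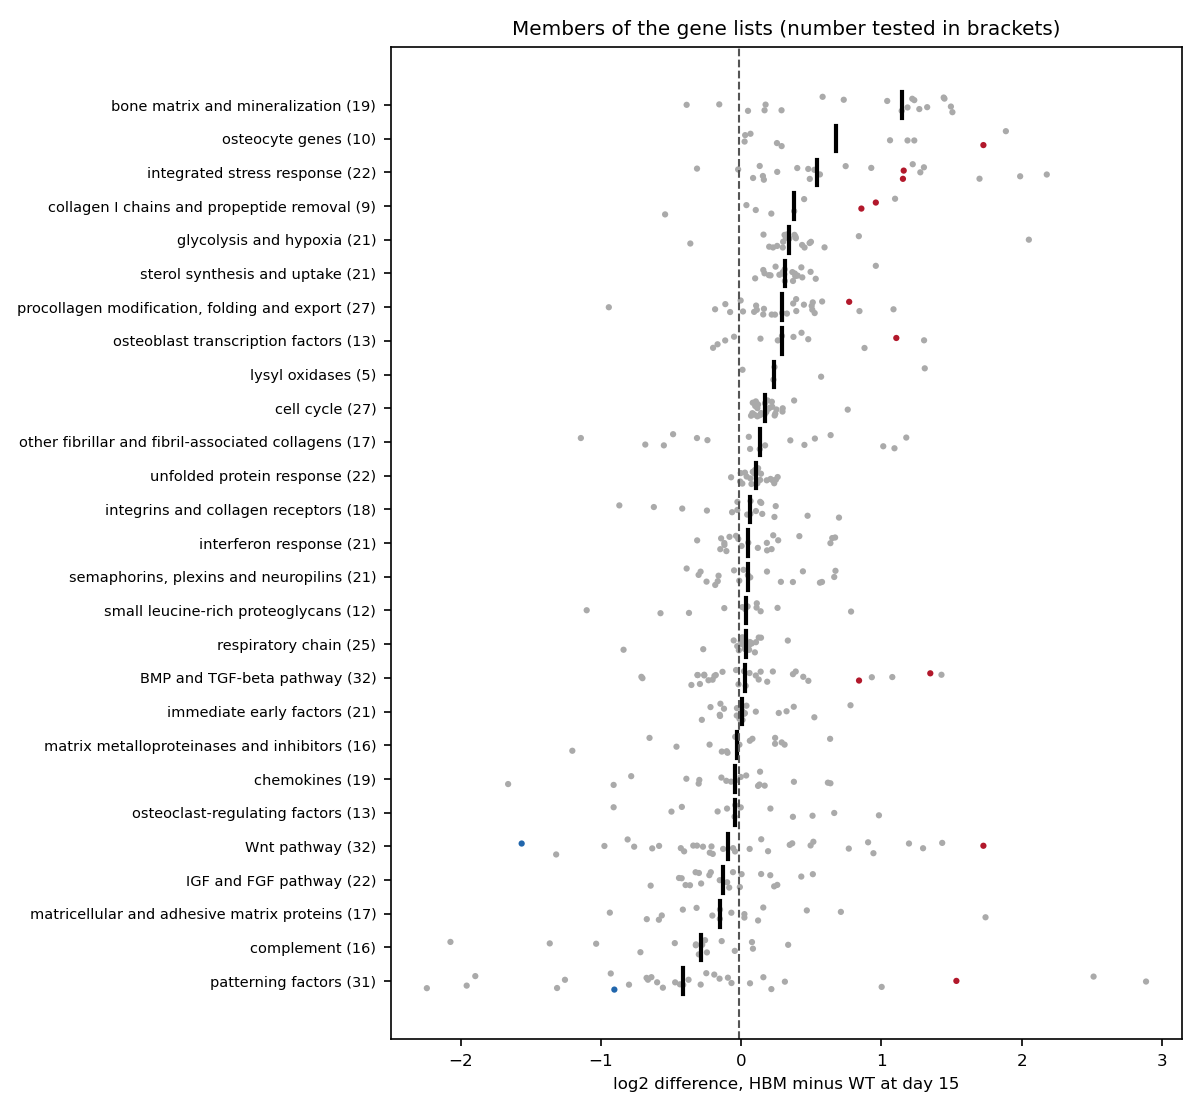
Log2 difference, HBM minus WT at day 15 (x axis), of each tested member of 27 gene lists (rows, with the number tested). Black bars are list medians, red and blue points passed as higher and lower, and the dashed line is the median of all genes. Bone matrix and mineralization has the highest median, 1.14, and patterning factors the lowest, -0.41.

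Of the cell type markers, those of osteoblasts gave the only calls. Of 10 osteoblast markers, 3 passed (Col1a1, Col1a2 and Sp7), and 10 were higher in HBM in all 3 pairs. Among all genes tested 0.307% passed, and 7061 of 16592 had the same direction in all 3 pairs. The 12 macrophage markers summed to 2231, 4711 and 9118 CPM in HBM, against 3552, 5691 and 9470.3 CPM in WT. The sum was lower in HBM in each pair, 0 passed and 11 had lower values, with a median log2 difference of -0.27. Without the batch 18 pair 8 of 12 had lower values, with a median of -0.08. In batch 21 both genotypes had the most macrophage RNA and the least osteoblast RNA. Of 10 adipocyte markers 0 passed and 9 had lower values. Adipoq, which encodes the fat hormone adiponectin, stood at 31.3, 0.502 and 0.0291 CPM in HBM, against 33.0, 7.86 and 4.81 CPM in WT, so that only batch 18 held it in both genotypes at a like level (-2.28 ± 0.96, adjusted p = 0.342). The 8 osteoclast markers summed to 539, 691 and 452 CPM in HBM, against 524, 636 and 361 CPM in WT, and 0 of 7 tested passed. The 8 tendon and suture fibroblast markers summed to 714, 819 and 608 CPM in HBM, against 944, 1091 and 687 CPM in WT, lower in each pair. Tnmd, tenomodulin, made up most of this sum, at 400.0, 619.5 and 348 CPM in HBM, against 597, 907 and 482 CPM in WT (-0.53 ± 0.11, adjusted p = 0.0611). Of the 8 markers 0 passed, 5 had higher and 3 lower values, and the median was 0.06.

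The cartilage markers summed to 2549.7, 3827 and 1975 CPM in HBM, against 1521, 3846 and 2413 CPM in WT, and 0 of 9 tested passed. Most of this sum came from 2 genes that went opposite ways. Col11a2 stood at 1761, 1936 and 417 CPM in HBM, against 594, 1216 and 203 CPM in WT. Col2a1 stood at 614, 1435 and 1236 CPM in HBM, against 680, 1840 and 1674 CPM in WT. By value 4 were higher and 5 lower, 2 and 4 of them in all 3 pairs, with a median log2 difference of -0.31. Smooth muscle, skeletal muscle, endothelial and neural markers also gave 0 passing genes, with sums of 2297 to 3851, 2.11 to 7.08, 7.90 to 16.7 and 41.9 to 69.9 CPM in HBM, against 2200 to 3557, 3.13 to 5.26, 14.6 to 17.2 and 60.0 to 67.6 CPM in WT. Erythroid markers summed to at most 0.176 CPM in HBM and at most 0.107 CPM in WT. Pax7 and Myf5 of muscle, Tie1 of endothelium, and Hbb-bs, Hbb-bt and Alas2 of red cells were at 0 in all 6 libraries. The part of the lower macrophage and fat markers in the results above was not tested.

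**Figure D4:**
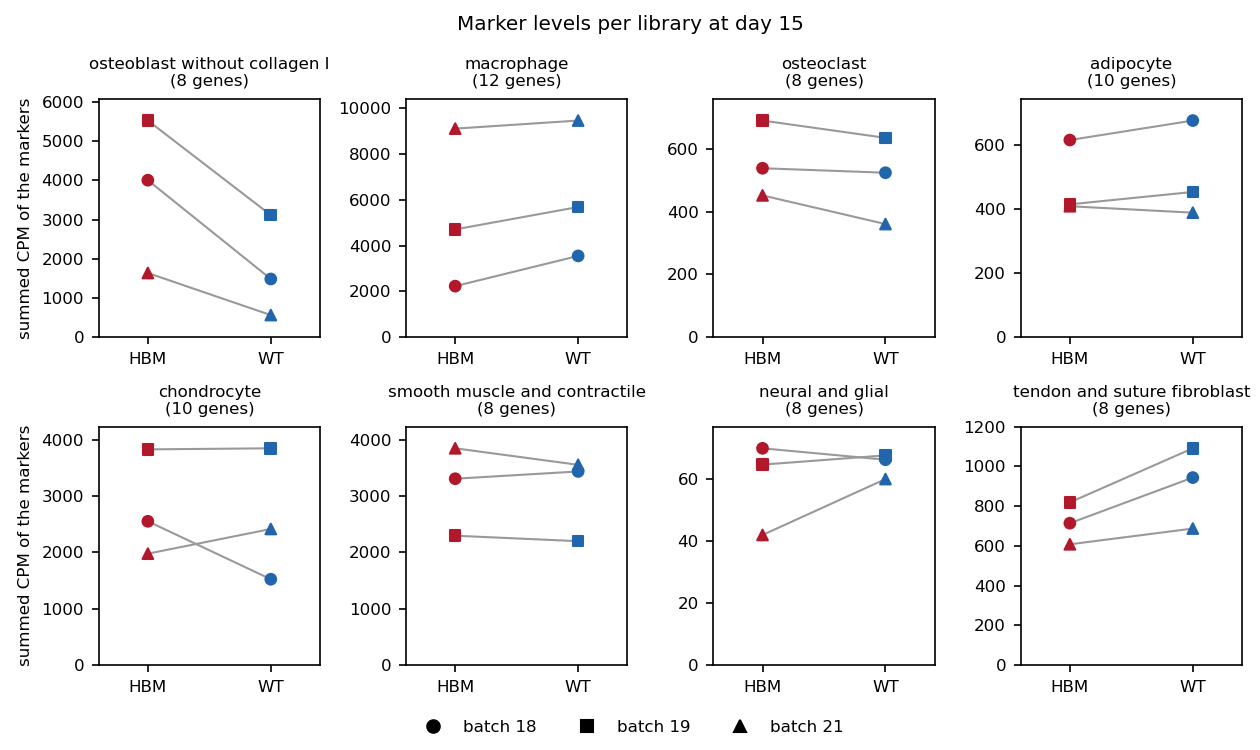
Summed CPM of cell type markers (y axis, from 0) in each HBM and WT library at day 15 (x axis), with symbols for batches 18, 19 and 21 and lines joining the libraries of a batch. The osteoblast markers other than collagen I are higher in HBM in all 3 pairs, and the macrophage sum is lower in HBM in all 3. The tendon and suture fibroblast sum, also lower in all 3, is mostly Tnmd, and 5 of its 8 markers have higher values in HBM.

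The differences at day 15 were set against those of the other days in the same model. The difference between genotypes at day 15 did not pass as different from the mean of days 10 and 21 for any gene (0 in edgeR, 143 at an unadjusted p under 0.05, 0 in DESeq2), nor from that at day 0 (0 in edgeR, 1498 at an unadjusted p under 0.05, 68 in DESeq2). The model called 20 genes at day 0 (0.121%; 0.0121% higher and 0.108% lower), 214 at day 10 (1.29%; 0.663% higher and 0.627% lower) and 41 at day 21 (0.247%; 0.163% higher and 0.0844% lower). At least 2-fold were 0.0603% at day 0, 0.663% at day 10 and 0.133% at day 21. Of the 37 higher genes of day 15, 24 had the same sign at day 0, 37 at day 10 and 37 at day 21, and 0, 27 and 18 passed on those days. Of the 14 lower genes, 13, 14 and 14 had the same sign, and 0, 11 and 5 passed. The days share no libraries but come from cultures with the same batch numbers, so they are not independent. At an unadjusted p under 0.05 the difference at day 15 departed from that at day 0 in 32 of the 37 higher and 6 of the 14 lower genes. Of all genes tested, 9.03% had such a p. The called genes were chosen by their difference at day 15, which enters this comparison as well, so their counts are raised by that choice.

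Col1a1 had log2 differences of 0.16 ± 0.14 at day 0, 0.70 ± 0.14 at day 10, 0.96 ± 0.14 at day 15 and 0.81 ± 0.14 at day 21. Nupr1 had -0.21 ± 0.14, 0.79 ± 0.14, 1.16 ± 0.14 and 1.17 ± 0.14 on these days, with the smallest unadjusted p of the called genes for the departure from day 0 (1.65e-05, adjusted p = 0.132). Shox2, at 1.09 ± 0.22, 0.94 ± 0.22, 1.53 ± 0.21 and 1.38 ± 0.21, and Bmp2, at 0.65 ± 0.14, 0.75 ± 0.12, 0.84 ± 0.12 and 0.68 ± 0.12, already had differences of like size at day 0, which did not pass there (adjusted p = 0.115 and 0.13). Dkk1 had its highest value at day 10, at 2.27 ± 0.33, and 1.05 ± 0.26 at day 21. Otx1 and 1700123M08Rik were the called genes whose difference at day 15 departed from its neighbouring days at an unadjusted p under 0.05 (0.0396 and 0.0105), with more negative values at day 15. Such a p was held by 0.862% of all genes tested. Both were chosen by their difference at day 15, which enters this comparison as well, so their departure is favoured by that choice. Otx1 also rests on counts of 2, 14 and 5 in HBM at day 15.

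**Figure D5:**
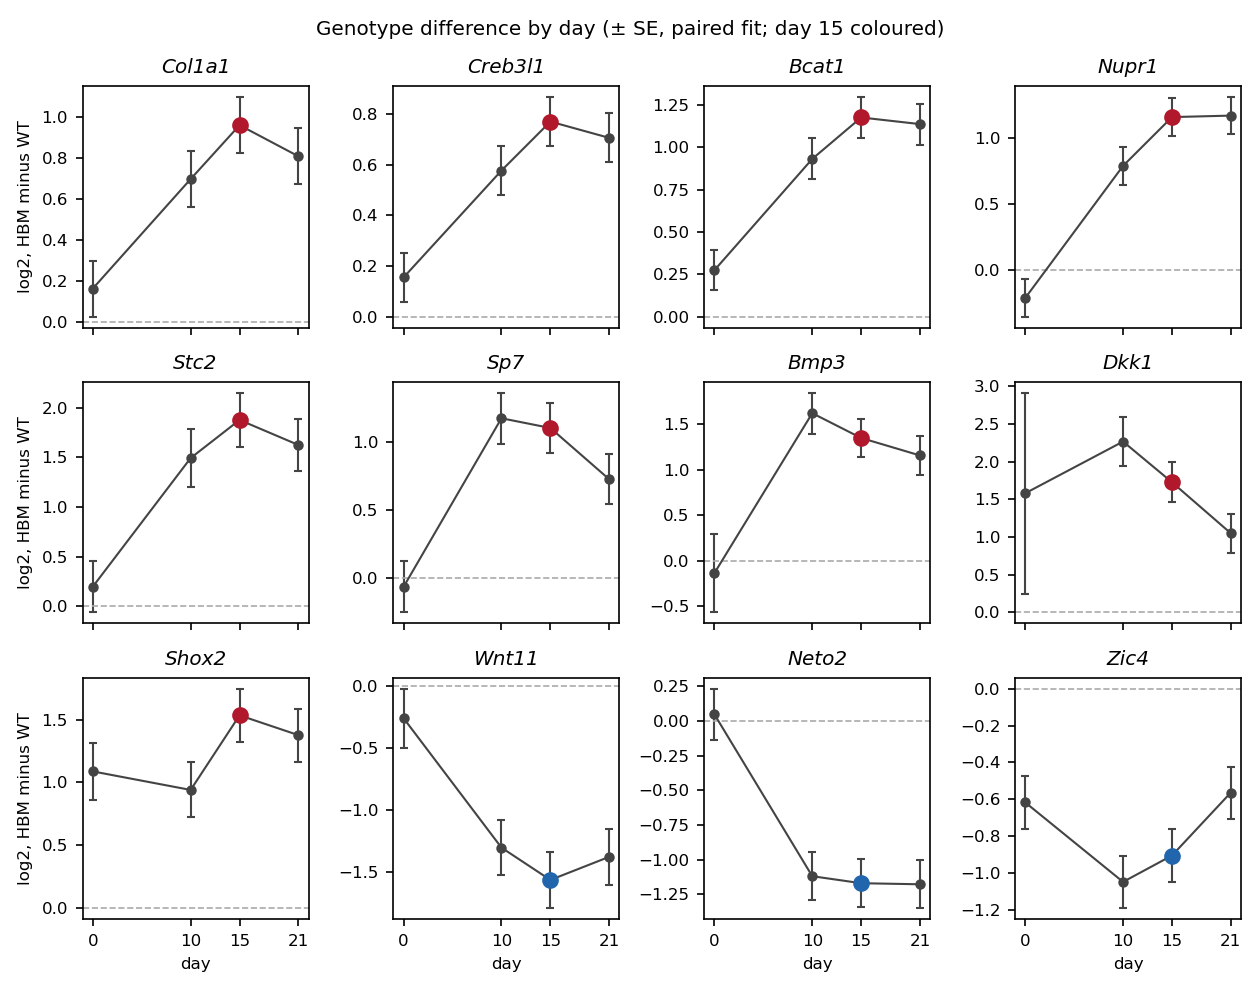
Log2 difference, HBM minus WT (y axis), at days 0, 10, 15 and 21 (x axis) for 12 called genes, with bars of ± 1 SE from the paired fit. Day 15 is coloured. The values of days 10, 15 and 21 lie on the same side of 0 in all 12 panels, while at day 0 Nupr1, Sp7, Bmp3 and Neto2 lie on the other side.

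The called genes were spread over the genome. The share of tested genes that passed was highest on chromosome 6, at 0.709%, and chromosome 4, at 0.696%, and was 0 on chromosomes 12, 16 and 17. On chromosome 11, which holds Col1a1, 5 of 1316 genes passed (0.38%). Of the 68 other tested genes within 2 Mb of Col1a1 0 passed, against 0.307% of all genes tested, a share at which 0 of 68 is no result. Their log2 differences ran from -2.04 to 1.39, with a median of 0.03. The lowest was that of Hoxb3 (-2.04 ± 0.94, adjusted p = 0.402). The highest was that of Sgca, whose start lies 26.6 kb from that of Col1a1 (1.39 ± 0.27, adjusted p = 0.0583). Dlx3 and Phospho1, described above, also lie in this window. Just outside the threshold were the heparan sulphate proteoglycan gene Gpc1, at 0.73 ± 0.14, and the angiopoietin gene Angpt1, at -0.93 ± 0.17 (adjusted p = 0.0509 for both). The last gene inside it was Tspan8, at an adjusted p of 0.0499.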

How the data were processed

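The deposited values are raw read counts per gene. The submitters' processing notes list mm10, Subread 2.0.1 with featureCounts, STAR 2.7.8a and cutadapt 3.4. For the strand setting and the annotation release, the answer is not given in the sources used here. Of 54232 rows, 54164 matched GENCODE M21, which gave symbols and coordinates, and the 68 others held at most 0.00337% of a library.

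Counts were tested in R 4.3.3 with edgeR 4.0.16 (TMM, filterByExpr with a minimum count of 10, robust quasi-likelihood fit, Benjamini-Hochberg over 16592 genes, threshold 0.05). The fit held 24 libraries, with a term for each of 8 groups and a batch term for each day. It has 8 residual degrees of freedom, and its error treats days of a culture as independent. DESeq2 1.42.0 was an alternative. Steps were tested on simulated data. The batch numbers pair the libraries by the batch tag of the labels. The correlations given in the results describe this pairing and are no test of it.

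The model, the gene lists and the members were chosen with earlier results of these data known. Genes were named by rule: up to 10 higher and 10 lower with the lowest p among called genes of at least 2-fold and 1 CPM, the 5 most abundant called in each direction, 9 bone genes, and list members. The rule gave 9 such lower genes and was filled with Arhgef16 (log2 difference -1.21 ± 0.23, adjusted p = 0.0583). All other called genes were named after their values were seen.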

Additional observations from a re-analysis of the deposited data

How the results depend on the processing

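The number of genes called between HBM and WT at day 15 was 51, of which 35 were at least 2-fold. Without the replicate block that pairs the libraries by batch it was 0, and 0 at least 2-fold. With a replicate block of 1 batch term for all days both were again 0 (1005 genes at an unadjusted p under 0.05). A block in the 6 day 15 libraries alone gave 719 and 155, of which 50 were among the 51, and one in the 18 libraries of days 10, 15 and 21 gave 180 in all, with 40 of the 51. Library totals gave 161 and 64, with 50 of the 51. Without the filter on low counts 92 genes passed, with 38 of the 51, and DESeq2 gave 443 and 142, with all 51. RLE size factors gave 56. Leaving out 1 batch pair gave 0 to 4 genes, and 0 to 4 at least 2-fold. The difference at day 15 departed from that at day 0 in 0 genes, against 9 without the filter and 68 in DESeq2.

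Of the other genes named, Hspa5 (-0.0159) and Pcolce (-0.0274) turned sign under library totals and Tnfrsf11b without the batch 19 pair (its leave-out values ran between -0.00497 and 0.334). The cause of these differences between settings was not tested. Leaving out a pair leaves 2. Without molecular identifiers, the depth of a library bounds counting error only.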

Other observations

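Genes of cholesterol synthesis and uptake had higher values in HBM throughout their list. Of 21 tested, 0 passed in the paired fit, 21 had higher values (20 under library totals), 20 were higher in all 3 pairs and 15 had an unadjusted p under 0.05, with a median log2 difference of 0.31. Among all genes tested 12.5% had such a p, in either direction, and 7061 of 16592 had the same direction in all 3 pairs. Hmgcs1, an early enzyme of the pathway, stood at 162, 142 and 87.5 CPM in HBM, against 132, 110.4 and 60.0 CPM in WT (0.40 ± 0.12, adjusted p = 0.159). Sqle, squalene epoxidase, stood at 0.39 ± 0.11 (adjusted p = 0.140). The paired model of 6 libraries called 11 of the 21, all higher, DESeq2 5 and the paired model of 18 libraries 0. These settings called 4.66%, 2.67% and 1.1% of all genes. Of 27 cell cycle genes 0 passed and 27 had higher values, by a median of 0.17, but 16 of 27 under library totals, and 18 of 27 with a median of 0.05 without the batch 18 pair.

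Complement genes had mostly lower values: of 16 tested 0 passed and 13 were lower, with a median of -0.29 (11 lower and -0.18 without the batch 18 pair). C3, the central component, stood at 61.5, 17.4 and 4.46 CPM in HBM, against 94.8, 46.6 and 20.5 CPM in WT (-1.36 ± 0.30, adjusted p = 0.0709). Of 22 IGF and FGF genes 0 passed and 15 had lower values. Igfbp2, which binds insulin-like growth factors, stood at 1582, 1104 and 2762 CPM in HBM, against 2158, 1974 and 4333 CPM in WT (-0.65 ± 0.15, adjusted p = 0.0897). In the lists of matrix metalloproteinases and inhibitors (16 tested), integrins and collagen receptors (18), interferon response (21), respiratory chain (25), immediate early factors (21), semaphorins, plexins and neuropilins (21) and chemokines (19) 0 passed, with medians of -0.03, 0.07, 0.05, 0.03, 0.01, 0.05 and -0.04. Under library totals the medians of the integrin, interferon, respiratory, immediate early and semaphorin lists were below 0.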
